A study of Mus musculus with 34 samples.

Results

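Kruppel-like factors are transcription factors that bind GC-rich and CACCC-type DNA through an array of zinc fingers at the carboxyl end of the protein. The 10 members described here are Klf2, Klf3, Klf4, Klf5, Klf6, Klf7, Klf9, Klf10, Klf13 and Klf16, taken by symbol from the 23366 gene symbols of the RNA-seq table, and all 10 were found in it. They were measured in mouse embryonic stem cells (mESCs) of the J1 line. The labels give passage 40 and the paper describes a lower passage for these cells, so how long they had been under each condition is uncertain. The cells were grown in serum medium on gelatin-coated plates, and both groups lacked leukemia inhibitory factor (LIF), the cytokine that keeps mESCs self-renewing in serum. The serum/-LIF group had no further addition (2 libraries), and the serum/-LIF + Royalactin group received 0.5 mg/ml of purified Royalactin, a honey bee royal jelly protein (2 libraries). The comparison asks how the transcriptome of LIF-deprived mESCs differs when Royalactin is present. The series describes its experiments as biological replicates, the labels do not tie a library to a culture, and the cells come from a single established line. Cultures with LIF were not analysed here.

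In mouse embryonic stem cells Klf2, Klf4 and Klf5 support self-renewal together and can partly replace each other. Klf4 is a target of the LIF receptor and Stat3, Klf2 lies downstream of Mek/Erk inhibition, and Klf4 is also an original reprogramming factor. Other members act mainly elsewhere: Klf3 represses through the corepressor CtBP, Klf9, Klf10, Klf13 and Klf16 recruit the Sin3 corepressor, and Klf6 and Klf7 form a closely related pair of activators.

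Promoter sequences are shown for Klf4 and Klf2, the members with the largest positive differences, and for Klf6, the member with the largest negative difference. They are the 250 bases before the start site in RefSeq (GRCm38.p6), written 5′ to 3′ on the strand of the gene, with GC boxes in capitals (GGGCGG on either strand), a motif that factors of this family bind. The Klf2 window is chr8:72318812-72319061 on the plus strand, the Klf4 window is chr4:55532476-55532725 on the minus strand, and the Klf6 window is chr13:5861239-5861488 on the plus strand.
Klf2: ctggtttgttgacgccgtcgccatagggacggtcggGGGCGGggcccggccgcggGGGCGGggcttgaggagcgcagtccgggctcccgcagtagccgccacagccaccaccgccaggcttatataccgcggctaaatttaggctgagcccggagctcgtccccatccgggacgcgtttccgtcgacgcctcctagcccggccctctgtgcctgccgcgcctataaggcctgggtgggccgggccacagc
Klf4: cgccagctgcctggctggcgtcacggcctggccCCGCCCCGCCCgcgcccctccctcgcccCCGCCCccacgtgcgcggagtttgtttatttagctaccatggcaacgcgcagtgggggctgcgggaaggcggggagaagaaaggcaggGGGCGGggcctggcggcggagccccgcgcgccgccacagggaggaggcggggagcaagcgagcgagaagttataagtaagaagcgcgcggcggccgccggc
Klf6: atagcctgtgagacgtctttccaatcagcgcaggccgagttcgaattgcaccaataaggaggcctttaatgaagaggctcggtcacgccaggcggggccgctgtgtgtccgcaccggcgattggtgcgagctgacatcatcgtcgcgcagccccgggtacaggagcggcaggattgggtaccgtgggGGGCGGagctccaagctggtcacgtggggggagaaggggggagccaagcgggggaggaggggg
The Klf4 window held 4 GC boxes, of which the first 2 share 1 base, the Klf2 window held 2 and the Klf6 window held 1. RefSeq promoters were found for 7 of the 10 members, namely these and Klf3, Klf7, Klf9 and Klf13. A GC box was present in 6 of these 7 windows and in 32.7% of the 32851 mouse promoter windows of the same length, and the windows of the 7 members were 59.2% to 78.4% G or C. The G or C content of all windows was not measured, so the motif shares given here are not matched for base composition. A CACCC box (CACCC on either strand) was found in 5 of the 7 windows and in 52% of all windows, but in neither the Klf4 nor the Klf6 window. The STAT motif TTCNNNGAA was found in the Klf9 window alone among the 7 (position -33, counted back from the start site) and in 7.02% of all windows. The MEF2 consensus was found in the Klf2 window alone among the 7 (position -118) and in 2.92% of all windows. Klf5, Klf10 and Klf16 are named without a window.

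Gene counts per library totalled 14737796 to 17597818 reads. Rn45s, the ribosomal RNA precursor gene, accounted for 46.6% and 21.6% of the serum/-LIF reads and for 38.4% and 9.08% of the Royalactin reads, so the replicates of each group differed in the reads left for other genes (7878527 to 15999458). Across the 12993 genes tested, log2 values correlated with an r of 0.876 between the serum/-LIF replicates, 0.929 between the Royalactin replicates and 0.844 to 0.902 between libraries of different groups, and these r values describe genes, which are not independent replicates. Scaled to the total without Rn45s, each of the 10 members kept the sign of its difference, and the log2 fold change of Klf4 was 3.93. Values are normalized counts, that is reads divided by the authors' size factor of the library, and all 10 members passed the filter of a mean of at least 10. Fold changes are differences of log2(normalized count + 1), Royalactin over serum/-LIF, with limma's standard error (SE), two-sided p and Benjamini-Hochberg adjusted p over the 12993 genes. These are bulk libraries, in which fewer cells of a type and less RNA per cell cannot be told apart.

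Klf4 rose with Royalactin and was the member with the largest difference, while Klf2 and Klf5 were higher in both Royalactin libraries without passing the adjusted p of 0.05. Klf4 had 30.8 and 18.6 normalized counts in serum/-LIF replicates 1 and 2, and 485 and 277 in serum/-LIF + Royalactin replicates 1 and 2. The groups were far apart, since even the closest pair of libraries differed 9.02-fold and the farthest 26.0-fold. The group means were 24.7 ± 8.58 and 381 ± 147 (SD, n = 2), a log2 fold change of 3.88 (SE 0.58, limma adjusted p = 0.00787). In reads these are 23 (95% exact Poisson interval 14.6 to 34.5) and 18 (10.7 to 28.5) in serum/-LIF against 482 and 403 with Royalactin, intervals that cover counting error only. Klf4 lies at chr4:55540013-55545347 on the minus strand (mm9). Of the 75-base tiles of its exons, 25.5% also match elsewhere in the genome, with the most matches on chromosomes 9, 15 and 14. Part of its reads may therefore fit more than 1 place, and how such reads were counted is not stated in the sources used here. The call did not hold with 2 libraries in a group and 1 in the other: limma's adjusted p for Klf4 was 0.166 without serum/-LIF replicate 1, 0.327 without serum/-LIF replicate 2, 1 without Royalactin replicate 1 and 0.975 without Royalactin replicate 2, with log2 fold changes of 3.48 to 4.28. In these fits 0 genes of the whole table passed, and 428 to 2496 genes had an unadjusted limma p under 0.05.

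Klf2 had 243 and 98.3 normalized counts in serum/-LIF and 830 and 584 with Royalactin. Both Royalactin libraries lay above both serum/-LIF libraries, but the serum/-LIF replicates differed from each other by 1.30 on the log2 scale. The means were 171 ± 103 and 707 ± 174 (SD, n = 2). The log2 fold change was 2.16 (SE 0.45), with an unadjusted limma p of 0.000326 and an adjusted p of 0.0596. On the recovered reads edgeR gave an adjusted p of 0.0752 and DESeq2 0.00318, and over 16 alternative settings the adjusted p ranged from 3.75e-10 to 1. Klf2 is at chr8:74842932-74845555 on the plus strand (mm9).

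Klf5, at chr14:99697910-99712624 on the plus strand (mm9), had 84.3 and 92.1 normalized counts in serum/-LIF and 414 and 147 with Royalactin. The serum/-LIF replicates were close together, whereas the Royalactin replicates differed by 1.49 on the log2 scale, as much as the groups did. The means were 88.2 ± 5.56 and 281 ± 189 (SD, n = 2). The log2 fold change was 1.47 (SE 0.55, limma adjusted p = 0.389). The log2 fold change was 0.73 without Royalactin replicate 1 and 2.22 without Royalactin replicate 2, above 0 in both.

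**Figure D1:**
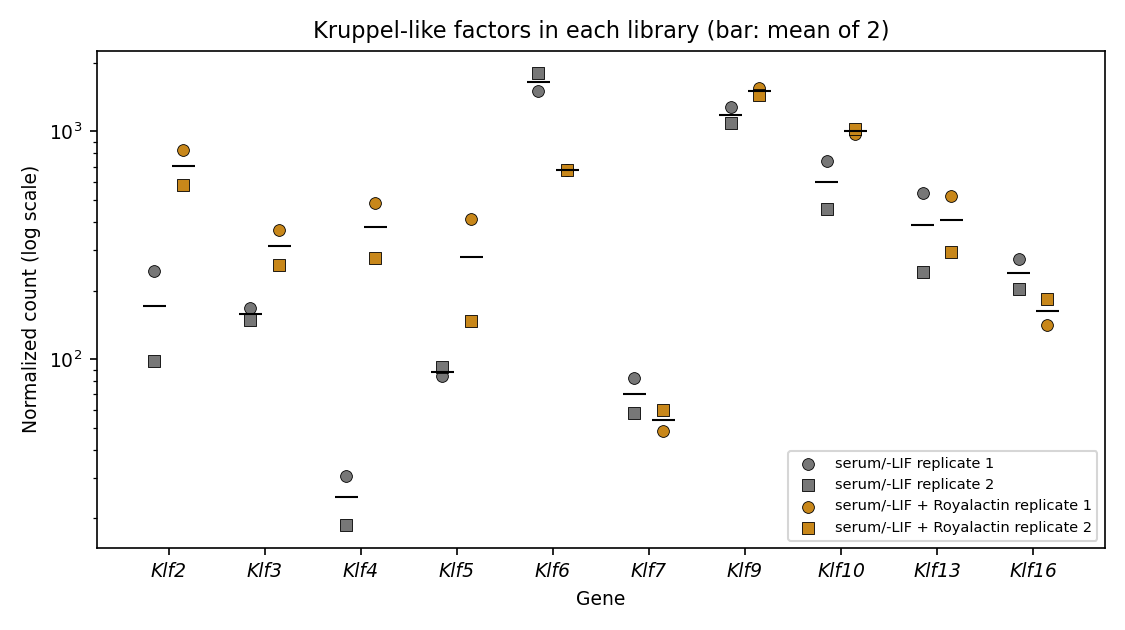
Normalized counts (y axis, log scale) of the 10 Kruppel-like factors (x axis) in the 4 libraries, with grey symbols for serum/-LIF, orange for serum/-LIF + Royalactin, circles for replicate 1, squares for replicate 2 and bars for the mean of 2. Klf4 shows the widest gap between groups, Klf6 lies lower in both Royalactin libraries, and the groups overlap for Klf7 and Klf13.

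Klf6, an immediate-early gene that responds to injury and growth signals in many tissues, ran the other way. It had 1506 and 1799 normalized counts in serum/-LIF and 674 and 680 with Royalactin. The Royalactin replicates were nearly equal and both lay far below the serum/-LIF replicates. The means were 1652 ± 207 and 677 ± 4.36 (SD, n = 2). The log2 fold change was -1.28 (SE 0.30), with an unadjusted limma p of 0.000817 and an adjusted p of 0.105, so Klf6 did not pass the adjusted threshold. It lies at chr13:5860735-5869639 on the plus strand (mm9). Klf7, its closest relative and a factor of neuronal differentiation, had 82.9 and 58.0 normalized counts in serum/-LIF and 48.3 and 59.9 with Royalactin. Its groups overlapped, with a log2 fold change of -0.36 (SE 0.66, limma adjusted p = 0.907). The exons of Klf7 (chr1:64076021-64168856, minus strand, mm9) share 3196 bases with Gm17427 and 6 with Gm13748 on the opposite strand, and since the strand setting of the counting is not stated in the sources used here, reads of these transcripts could have been counted for Klf7.

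Of the 4 members that recruit Sin3, Klf9 and Klf10 were higher in both Royalactin libraries, Klf16 was lower in both and Klf13 overlapped, and 0 of the 4 passed limma's adjusted p, edgeR or DESeq2. At an unadjusted limma p under 0.05 there was 1, Klf10, against 1214 of the 12993 tested genes. Klf10, a gene induced early by TGF-beta, had 740 and 454 normalized counts in serum/-LIF and 979 and 1026 with Royalactin, without overlap (log2 fold change 0.79, SE 0.34, limma adjusted p = 0.476). Klf9, a gene induced by glucocorticoid and thyroid hormone, had 1274 and 1086 in serum/-LIF and 1547 and 1449 with Royalactin, also without overlap (0.35, SE 0.29, adjusted p = 0.773).

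Klf13, a regulator of chemokine expression in lymphocytes, had 538 and 240 normalized counts in serum/-LIF and 522 and 295 with Royalactin. Its replicates differed more than its groups did, by 1.16 and 0.82 on the log2 scale within groups against 0.13 between their means (SE 0.45, limma adjusted p = 0.956), and 4.69% of its exon tiles match elsewhere. The sign of this difference turned without serum/-LIF replicate 2 (-0.45) and without Royalactin replicate 1 (-0.29). Klf16 had 274 and 203 in serum/-LIF and 142 and 183 with Royalactin, lower in both Royalactin libraries (-0.55, SE 0.44, adjusted p = 0.759).

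Klf3, the CtBP-dependent repressor, had 167 and 149 normalized counts in serum/-LIF and 367 and 258 with Royalactin. Both Royalactin libraries were higher, and the means were 158 ± 12.8 and 313 ± 77.1 (SD, n = 2). The log2 fold change was 0.96 (SE 0.42, limma adjusted p = 0.503). Klf9 lies at chr19:23215716-23241401 (plus strand), Klf10 at chr15:38221219-38230464 (minus), Klf13 at chr7:71031237-71083801 (minus), Klf16 at chr10:80029874-80040041 (minus) and Klf3 at chr5:65194628-65221368 (plus), in mm9.

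Counted over the family members, 1 of 10 passed the adjusted p upwards (Klf4), where 0.331% of all tested genes did, and 0 of 10 passed it downwards, where 0.162% did. An unadjusted limma p under 0.05 was found for 6 of 10, against 1214 of the 12993 tested genes. Of these members Klf2, Klf3, Klf4, Klf5 and Klf10 were higher and Klf6 was lower. The study's limits are a p of 0.05 and a fold change of 2, with no adjustment named. Applied here to limma's unadjusted p, they were passed upwards by 3 members (Klf2, Klf4 and Klf5), against 3.52% of all tested genes. Downwards they were passed by 1 (Klf6), against 3.61%. Both Royalactin libraries lay above both serum/-LIF libraries for 6 members (Klf2, Klf3, Klf4, Klf5, Klf9 and Klf10), as for 19.7% of tested genes, and below them for 2 (Klf6 and Klf16), as for 18.9%. The median log2 fold change of the 10 members was 0.57, and that of all tested genes was -0.01. The members' median was 0.87 without serum/-LIF replicate 1 and 0.33 without serum/-LIF replicate 2. DESeq2 called 3 members (Klf2, Klf4 and Klf6), against 248 of the 12993 tested genes, and edgeR called 1 (Klf4), against 55.

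**Figure D2:**
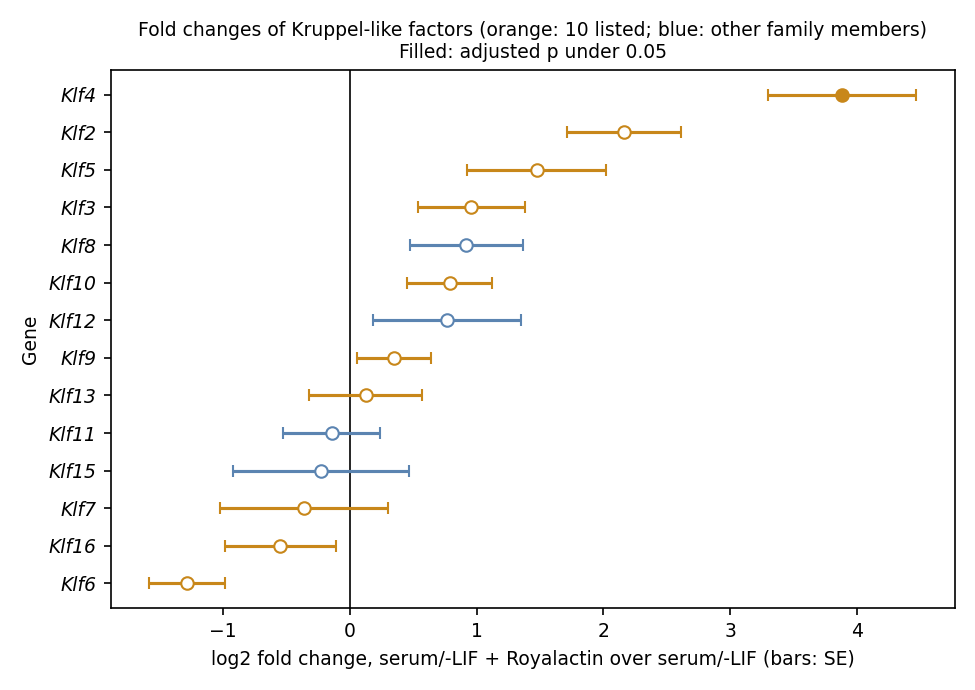
Log2 fold change of serum/-LIF + Royalactin over serum/-LIF (x axis) with limma's SE as bars for the 10 listed factors (orange) and 4 other tested family members (blue), one gene per line, filled where the adjusted p is under 0.05. Klf4 at 3.88 is the filled point and Klf6 at -1.28 is the lowest.

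The order of the members by level was described per kb of exon, because longer transcripts give more reads. In serum/-LIF, Klf6 (392 ± 49.1 normalized counts per kb, SD, n = 2) and Klf9 (362 ± 40.9) stood above the others, with overlapping replicates. Klf10 (156 ± 52.7), Klf2 (92.5 ± 55.5) and Klf16 (90.2 ± 19.1) followed, and each overlapped its neighbour in this order. Klf3 (60.5 ± 4.90), Klf13 (58.9 ± 31.9) and Klf5 (51.2 ± 3.23) came next by their means, each overlapping its neighbour. They were not apart from the genes before them, since the replicates of Klf2 (132 and 53.2) spanned those of Klf3 (64.0 and 57.0). Klf7 (8.66 ± 2.17) and Klf4 (8.07 ± 2.80) were lowest and overlapped. This order covers the 10 members, and the other factors of the family are described further on.

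With Royalactin the order per kb began with Klf9 (459 ± 21.2) and Klf2 (383 ± 94.2), whose replicates overlapped. Klf10 (262 ± 8.68) came next, then Klf5 (163 ± 110) and Klf6 (161 ± 1.03), which overlapped, and Klf4 (125 ± 47.9) and Klf3 (120 ± 29.5), which also overlapped. Klf13 (61.9 ± 24.4) and Klf16 (61.4 ± 11.0) overlapped, and Klf7 (6.65 ± 1.01) was lowest. Klf4 moved from place 10 to place 6 in this order and Klf6 from place 1 to place 5. Places follow the means and are not all separated: the replicates of Klf5 (241 and 85.2) spanned those of Klf6, Klf4 and Klf3. The exon lengths come from the annotation used here, not from the one the authors counted on. Those of Klf5 (1721 bases) and Klf2 (1847 bases) are short, which raises their values per kb.

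The summed level of the 10 members was 1391 and 1168 normalized counts per kb in serum/-LIF and 2018 and 1586 with Royalactin, a log2 ratio of the means of 0.49. On the scale of normalized counts the sums were 4940 and 4198 in serum/-LIF and 6008 and 4958 with Royalactin, so that the closest libraries of the 2 groups were almost equal (log2 ratio 0.26). In the sum of normalized counts, Klf2, Klf4 and Klf5 together made up 7.3% and 4.98% in serum/-LIF and 28.8% and 20.3% with Royalactin. Within the sum per kb, Klf2, Klf4 and Klf5 together made up 13.7% and 9.66% in serum/-LIF and 42.1% and 31.0% with Royalactin. Klf6 made up 25.7% and 36.5% in serum/-LIF and 7.92% and 10.2% with Royalactin. These shares describe the composition of the family, and no test was made on them, since the same genes' differences are given above.

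**Figure D3:**
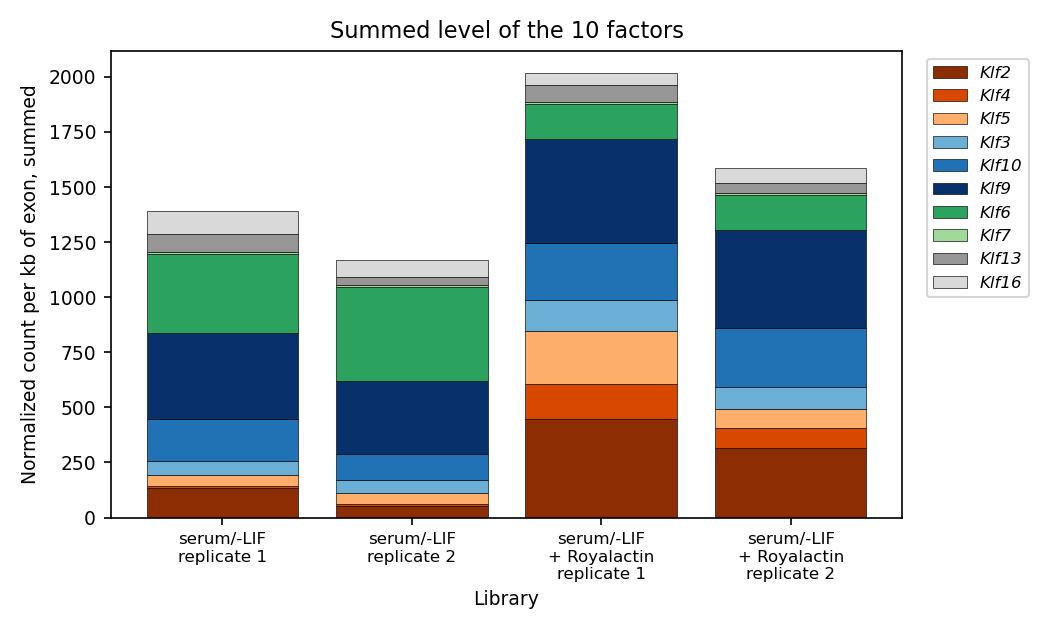
Normalized counts per kb of exon summed over the 10 factors (y axis) in each of the 4 libraries (x axis), each bar divided by gene. The orange and brown segments of Klf2, Klf4 and Klf5 take 42.1% and 31.0% of the Royalactin bars and 13.7% and 9.66% of the serum/-LIF bars, and the green segment of Klf6 is smaller in the Royalactin bars.

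The table holds 7 other Kruppel-like factors, of which 4 could be tested. None of these 4 passed limma's adjusted p, 0 had an unadjusted p under 0.05, and edgeR and DESeq2 called 0. Klf8, a CtBP-dependent repressor like Klf3, had the largest positive difference, with 294 and 132 normalized counts in serum/-LIF and 351 and 399 with Royalactin (log2 fold change 0.92, SE 0.44, limma adjusted p = 0.562). Klf15, a regulator of metabolism in liver and muscle, had the largest negative difference, with 58.8 and 84.9 in serum/-LIF and 37.2 and 97.1 with Royalactin, overlapping groups (-0.23, adjusted p = 0.950). Klf11 and Klf12, both tested, lay between them. Klf1, Klf14 and Klf17 fell under the filter, with at most 14 reads in a library. Klf17 was without reads in serum/-LIF and had 11 in each Royalactin library. Its Royalactin mean was 2.62-fold over a serum/-LIF floor of 3 reads per library, and 39.8% of its exon tiles match elsewhere. The related Sp factors share the DNA-binding domain: 7 of 9 were tested, and 0 passed limma's adjusted p, edgeR or DESeq2. An unadjusted limma p under 0.05 was found for 1 of them (Sp8), against 1214 of the 12993 tested genes. Sp8 had 207 and 123 normalized counts in serum/-LIF and 40.2 and 57.1 with Royalactin (-1.72, adjusted p = 0.338), and Sp1 had the largest positive difference (0.34, adjusted p = 0.785).

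Among 11 corepressors and coactivators that work with the family, Kat2b, the acetyltransferase PCAF, rose with Royalactin and the other 10 did not pass. Kat2b had 358 and 312 normalized counts in serum/-LIF and 1376 and 1295 with Royalactin, with replicates of each group close together (log2 fold change 2.00, SE 0.32, limma adjusted p = 0.0123). Fhl3, a LIM-domain cofactor of Klf3, had the largest negative difference, with 142 and 124 in serum/-LIF and 65.4 and 27.5 with Royalactin (-1.62, adjusted p = 0.429). The median over the 11 genes was -0.04, and 0.331% of all tested genes were called higher. Among 5 ubiquitin ligases that act on these proteins, 0 passed limma's adjusted p, an unadjusted p of 0.05, edgeR or DESeq2. Fbxw7 had the largest positive difference (0.48, adjusted p = 0.717) and Btrc the largest negative one (-0.18, adjusted p = 0.920).

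Of 14 genes of the signals that act upstream of the members, 13 could be tested and 1 passed limma's adjusted p, upwards, where 0.331% of all tested genes did and 0.162% passed it downwards. This was Lifr, the LIF receptor subunit, with 309 and 252 normalized counts in serum/-LIF and 1505 and 1312 with Royalactin (log2 fold change 2.33, SE 0.32, limma adjusted p = 0.00461). Its groups were well separated although no LIF was added to either. Stat3, which carries the LIF signal to Klf4, had 195 and 150 in serum/-LIF and 554 and 500 with Royalactin (1.62, adjusted p = 0.107), and Socs3, a feedback target of Stat3, had 60.2 and 73.5 against 167 and 190 (1.41, adjusted p = 0.389). Jak1, the kinase that the receptor activates, had 773 and 772 in serum/-LIF and 718 and 470 with Royalactin, lower in both (-0.41, adjusted p = 0.764). Il6st, the remaining gene of that path in the list, had 535 and 612 in serum/-LIF and 1113 and 827 with Royalactin (0.75, limma adjusted p = 0.4855). Stat3, Socs3, Jak1 and Il6st are named as genes of the LIF path to Klf4, a choice made after their values were seen. Of the 13 fold changes 7 were above 0 and 6 below, with a median of 0.18. An unadjusted limma p under 0.05 was found for 4 of the 13, against 1214 of the 12993 tested genes. Without overlap, 5 of the 13 were higher with Royalactin, against 19.7% of all tested genes, and 3 were lower, against 18.9%. Tgfbr2, a TGF-beta receptor upstream of Klf10, had the largest negative difference (-1.52, adjusted p = 0.737), at 9 to 29 reads per library. Thrb, a thyroid hormone receptor, had 0 reads in every library.

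Of 12 naive pluripotency factors that act beside Klf2, Klf4 and Klf5, 7 rose by limma's adjusted p, against 0.331% of all tested genes. The 12 fold changes were all above 0 (median 2.26), as were 6414 of the 12993 of all tested genes. This list was drawn up with earlier results of these libraries known, so its count is not independent evidence of a direction. The 7 were Esrrb (log2 fold change 2.87), an orphan nuclear receptor, Tfcp2l1 (3.10), a LIF/Stat3 target, Nr5a2 (3.22), Zfp42 (2.30), which encodes Rex1, Sox2 (1.52), the partner of Oct4, Tcl1 (3.81), a cofactor of Akt, and Fbxo15 (2.22), with adjusted p values of 0.00273, 0.00273, 0.00333, 0.00371, 0.0368, 0.0261 and 0.0400. Prdm14 had the largest difference (4.04, adjusted p = 0.220) at 1.04 to 123 normalized counts, and Pou5f1, which encodes Oct4, the smallest (0.25, adjusted p = 0.854). Pou5f1 stood at 4996 and 5407 in serum/-LIF and 5140 and 7453 with Royalactin, and its difference was -0.016 without Royalactin replicate 2. Klf4 at 3.88 lay above the 7 called genes of this list, Klf2 at 2.16 lay between Sox2 and Fbxo15, and Klf5 at 1.47 lay below Sox2, a comparison of values with no test.

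The profiles closest to Klf2, Klf4 and Klf5 over the 4 libraries were sought among 12990 other tested genes, by the distance between log2 values after each gene's mean was removed. Kcnk5 (distance 0.195), Tgm1 (0.196) and Kifc2 (0.201) were closest to Klf2, and Kcnk5 had 226 and 98.3 normalized counts in serum/-LIF and 706 and 587 with Royalactin. Treml2 (0.115), Pcdhga12 (0.387) and Kdr (0.492) were closest to Klf4, each under 60 normalized counts in every library. Ndnf (0.181), Pou6f1 (0.373) and Gm6792 (0.430) were closest to Klf5 and shared its high value in Royalactin replicate 1. With 4 libraries in 2 conditions such likeness is a description.

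Marker genes of other cell types were counted beside these results. The summed level of 9 markers of undifferentiated embryonic stem cells was 34269 to 37831 normalized counts in serum/-LIF and 40529 to 47338 with Royalactin, with 2 of 9 called higher (Sox2 and Zfp42) and Pou5f1 present in every library as given above. Both Royalactin libraries lay above both serum/-LIF libraries for 4 of the 9, against 19.7% of all tested genes, and below them for 2, against 18.9%. These 2 were Tdgf1 (10914 and 14553 against 8696 and 9728, log2 fold change -0.45, limma adjusted p = 0.730) and Lin28a (7005 and 5721 against 5402 and 5707, -0.19, adjusted p = 0.891), both named after their values were seen. Of 10 fibroblast markers 2 could be tested. The sum of all 10 was 95.2 to 112 in serum/-LIF and 37.9 to 55.3 with Royalactin, with Pdgfrb, Postn and Fap at 0 in every library. Dcn had 28 and 30 reads in serum/-LIF and 0 with Royalactin (limma adjusted p = 0.422). Of 6 endothelial markers 3 could be tested (Pecam1, Tek and Kdr), and 3 were higher in both Royalactin libraries, against 19.7% of all tested genes. The sum of all 6 was 207 to 376 in serum/-LIF and 844 to 874 with Royalactin, with Emcn at 0. Most of that sum was Pecam1 (138 to 221 and 584 to 638), which mESCs also express. Tek had 103 and 62.1 in serum/-LIF and 205 and 235 with Royalactin (1.44, limma adjusted p = 0.349). Kdr had the largest difference (4.13, limma adjusted p = 0.547) at 31 reads or fewer. Under the filter, Tie1 was lower in both Royalactin libraries (21 and 7 reads against 0 and 2), and Cdh5 overlapped. Pecam1, Tek, Tie1 and Cdh5 were named after their values were seen. Of 8 primitive endoderm markers 5 could be tested. The sum of all 8 was 844 to 1086 in serum/-LIF and 581 to 955 with Royalactin. Pdgfra showed the largest difference (2.38, limma adjusted p = 0.709), which was -0.49 without serum/-LIF replicate 2. Of 7 trophoblast markers 2 could be tested. The sum of all 7 was 36.2 to 46.8 in serum/-LIF and 65.4 to 81.9 with Royalactin, with Elf5 at 0. Krt7 showed the largest difference (1.01, limma adjusted p = 0.835). Of 5 erythroid markers Hbb-bh1 and Hba-x were at 0, and the sum, 4366 to 5059 and 4944 to 5399, came mostly from Tfrc (0.14), a gene of all dividing cells. Outside the embryonic stem cell list 0 markers passed limma's adjusted p or edgeR's, 1 fibroblast and 2 endothelial markers had an unadjusted limma p under 0.05, and DESeq2 called 1 fibroblast and 1 endothelial marker. Over the 12993 tested genes, 1214 had such a limma p and DESeq2 called 248. The part of such cells in the differences of the Kruppel-like factors was not tested.

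**Figure D4:**
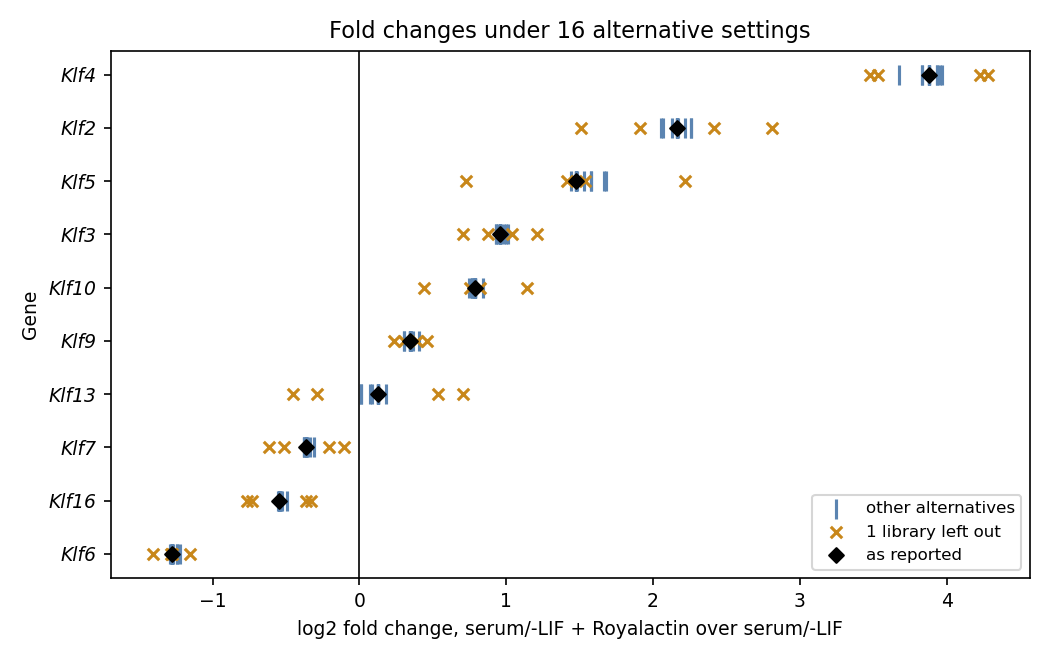
Log2 fold change of serum/-LIF + Royalactin over serum/-LIF (x axis) for each of the 10 factors (y axis), as reported (black diamonds), with 1 library left out (orange crosses) and under the other alternative settings (blue ticks), 16 alternatives in all. The sign stays the same for 9 factors and turns for Klf13 in 2 of 16, and the crosses of Klf5 run from 0.73 to 2.22. The other filters, the replicate block and the fit without the variance trend cannot change a fold change. The sign under these settings was fixed in advance.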

How the data were processed

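The 4 RNA-seq libraries of J1 mESCs were used, 2 per group. Groups and replicates follow the sample labels, which match the column names, and all value columns were mapped. Further conditions and the ATAC-seq were not analysed here.

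Alignment by the authors was to mm9 (Tophat, at most 2 mismatches) and counting was with HTSeq-count. The deposited values are a signal, namely read counts divided by a DESeq size factor per library. The annotation and strand setting are not given in the sources used here. For each library, all 23366 values (100%) fell within 0.01 of a read of whole multiples of a step, and dividing by this step gave the recovered reads. The step of Royalactin replicate 1 (1.01) is too near 1 to be decided by an automatic test, and count tests were therefore run as alternatives only. On recovered reads edgeR 4.0.16 called 55 genes and DESeq2 1.42.0 called 248.

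Testing used limma 3.58.1 (R 4.3.3) on log2 of the normalized count plus 1, with lmFit and trended eBayes, two-sided p and Benjamini-Hochberg adjustment. The 12993 genes whose mean was 10 or more entered, and 64 passed an adjusted p of 0.05 (43 higher, 21 lower). With 2 libraries per group an exact permutation test cannot go below p = 0.333, so none is given. SD is over the 2 libraries. Floors are 3 reads and intervals exact Poisson at 95%, for counting error only.

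The members, gene lists and tests were chosen with earlier results of these data known. The genes named are the 10 members, the genes of each list that passed the adjusted p and the largest difference in each direction, the 3 genes most like Klf2, Klf4 and Klf5, and genes whose exons overlap a member. In marker lists the largest absolute difference is named, with genes that passed. Positions, exon lengths and GC content are from GENCODE vM1 for the authors' build, which matched 98.2% of the tested genes. Exon tiles of 75 bases were matched to the genome with up to 2 mismatches. The steps were tested on simulated data. Alternatives were other pseudocounts, filters and scalings, the replicate block, no variance trend, each library left out, and a correction for GC content and length.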

Additional observations from a re-analysis of the deposited data

How the results depend on the processing

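Of 160 fold changes of the 10 members under 16 alternatives, 141 kept their direction and side of the adjusted threshold, 12 passed it newly, 5 no longer passed it and 2 changed sign. Klf4 passed it in 11 of 16 alternatives, Klf2 in 6, Klf6 in 4, and Klf5 and Klf10 in 1 each. Without the variance trend or with 1 library left out, the adjusted threshold gave the same outcome for every gene of the table. A side kept or lost under these settings, the 5 above included, therefore says nothing about a single member. The other filters, the replicate block and the fit without the trend cannot change a fold change, so their signs were fixed in advance. The members past the study's limits of p and fold, 4 as reported, numbered 3 to 5 over these alternatives, and the median of the members stayed between 0.33 (without serum/-LIF replicate 2) and 0.87 (without serum/-LIF replicate 1).

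The number of called members, 1 as reported, was 2 (2 higher) with a pseudocount of 5 or a mean of at least 50, 3 (2 higher, 1 lower) with DESeq2 or the GC and length correction, 0 without the variance trend, and 0 to 0 with 1 library left out, where the group with 1 library is assumed to vary like the other. Without the trend 0 genes of the table passed limma's adjusted p, and 1135 had an unadjusted p under 0.05. The naive factors, 7 as reported, numbered 4 with a pseudocount of 0.1 or without the filter, 0 without the trend and 0 to 0 with 1 library left out. The corepressors and coactivators, 1 as reported, numbered 0 without the trend and 0 to 0 with 1 library left out. The upstream signals, 1 as reported, numbered 2 with DESeq2 or the GC and length correction, 0 without the trend and 0 to 0 with 1 library left out. The summed level had a log2 ratio of 0.26 in normalized counts and 0.49 per kb. What caused these shifts was not tested. The calls over all tested genes, 64 as reported, were 0 without the trend and 0 to 0 with 1 library left out, 32 with a pseudocount of 0.1, 34 without the filter, 86 with a pseudocount of 5, 99 with a mean of at least 50, 55 with edgeR, 248 with DESeq2 and 273 with the GC and length correction. Upper-quartile scaling gave 34 higher and 12 lower and scaling to the total without Rn45s gave 35 and 11, against 43 and 21.

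The replicate numbers were not taken to pair the libraries: deviations of same-numbered libraries from their group means correlated with r = 0.0851 across 12993 genes, from 2 pairs. The Rn45s share did follow the number, at 46.6% and 38.4% in replicate 1 of the groups and 21.6% and 9.08% in replicate 2. With 2 pairs, whether same-numbered libraries belong together cannot be decided. In the fit with a replicate block, 391 genes were called, 3 members (2 higher, 1 lower) and 2 upstream signals, at 1 residual degree of freedom. With the block and the GC and length correction together, 806 genes were called, 5 members (4 higher, 1 lower), 2 upstream signals and 1 Sp factor.

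With 1 library left out, the sign changed within the range for Klf13 (-0.45 to 0.71), Klf15 (-0.91 to 0.45), Pdgfra (-0.49 to 5.25) and Pou5f1 (-0.016 to 0.52), of which none was called. The depth limits Klf4 in serum/-LIF to 18 and 23 reads, and Klf1, Klf14 and Klf17 could not be tested.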
